A study of Mus musculus with 8 samples.

Results

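The genes described here are the poly(ADP-ribose) polymerase (Parp) family members Parp1, Parp2, Parp3, Parp8, Parp9, Parp10, Parp11, Parp12 and Parp14, with Dtx3l, the partner of Parp9. They were chosen by name, with results of these same arrays already known, and the values compared between treated and control livers were part of that choice, so the differences of the members are given as a description and not as a test. Each was read from a probe set that the platform annotation assigns to exactly 1 gene, the brightest over the 8 arrays where a gene had several. By that rule 9 of the 10 members were measured, among 30649 genes in all. The probe set of Parp1 is also annotated to the microRNA gene Mir6904, and Parp1 is not analysed here. RNA came from the livers of 8 male C57BL/6 mice, all fed a high fat diet for 13 weeks, and was hybridised to whole-transcript Affymetrix mouse arrays, 1 array per liver. The 4 treated mice had been given anti-miR-128-3p, which is directed against the microRNA miR-128-3p, in 5 intraperitoneal injections. The 4 control mice, on the same diet, received control injections, called vehicle in the treatment field of the labels, which names miR-128-3p itself where the titles name the inhibitor. The sources used here give neither the age of the mice nor the dose. No array of mice on ordinary chow was used, so diet is shared by both groups.

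PARP enzymes transfer ADP-ribose from NAD onto proteins and nucleic acids. Parp1, Parp2 and Parp3 are activated by breaks in DNA and mark the damage for repair, and Parp1 and Parp2 build long chains of ADP-ribose. Most other members add single ADP-ribose units or have no known activity, and several of them, with Dtx3l, are induced by interferon and take part in antiviral defence. In the liver such interferon-induced genes can be expressed by hepatocytes and by resident and infiltrating immune cells alike.

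The microRNA that the injected inhibitor is directed against is printed first, from RefSeq on GRCm38.p6, since it defines the treatment. It is encoded at 2 places, chr1:128202404-128202424 (plus strand) in Mir128-1 and chr9:112118644-112118664 (minus strand) in Mir128-2, with the same mature sequence, and the capitals mark its seed, bases 2 to 8.
mmu-miR-128-3p: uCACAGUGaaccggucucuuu

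Promoter windows of the members were searched for the letters of an interferon-stimulated response element (GAAA, any 2 bases, GAAA), to which interferon regulatory factors bind, and for those of a STAT element, TTCNNNGAA, on both strands. A window runs from 250 bases before to 50 after a gene's start in RefSeq (GRCm38.p6). Windows were matched for 7 of the 10 members, and Parp9, Parp10 and Parp14 were not searched. Over all 32851 windows of this length 3.443% hold the first motif and 8.298% the second, and for the interferon reference genes used further below the counts were 11 of 22 windows and 5 of 22 windows. Among the interferon-linked members, Parp11 has windows at 2 starts, and the upstream one (chr6:127446590-127446889, plus strand) holds both motifs. The response element letters lie on the minus strand at -44 to -35 from the start and the STAT letters on the plus strand at -37 to -29, so the motifs overlap. The downstream Parp11 start (chr6:127453377-127453676, plus strand) and Dtx3l (chr16:35938978-35939277, minus strand) hold neither. The 3 windows are shown because Parp11 is the member whose signals in the groups lay furthest apart for their spread and Dtx3l belongs to the gene cluster described below, with capitals for the motif letters.
Parp11 upstream start: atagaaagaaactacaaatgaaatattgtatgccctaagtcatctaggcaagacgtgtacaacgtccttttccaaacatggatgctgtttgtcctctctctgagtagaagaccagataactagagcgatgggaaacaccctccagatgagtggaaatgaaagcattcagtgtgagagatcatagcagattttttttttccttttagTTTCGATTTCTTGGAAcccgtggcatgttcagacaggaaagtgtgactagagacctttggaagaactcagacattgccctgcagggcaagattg
Parp11 downstream start: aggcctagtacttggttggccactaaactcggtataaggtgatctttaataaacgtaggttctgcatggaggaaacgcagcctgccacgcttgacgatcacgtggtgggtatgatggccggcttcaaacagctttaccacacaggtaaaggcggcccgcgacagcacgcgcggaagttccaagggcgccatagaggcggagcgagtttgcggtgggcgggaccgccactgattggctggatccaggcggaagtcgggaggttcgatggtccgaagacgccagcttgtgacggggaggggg
Dtx3l: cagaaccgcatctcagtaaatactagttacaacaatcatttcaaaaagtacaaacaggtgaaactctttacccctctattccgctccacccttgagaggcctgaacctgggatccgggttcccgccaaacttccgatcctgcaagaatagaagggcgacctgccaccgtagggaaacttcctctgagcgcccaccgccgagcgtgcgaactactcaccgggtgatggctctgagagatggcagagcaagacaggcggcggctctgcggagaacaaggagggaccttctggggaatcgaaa

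The windows of Parp12, Parp8, Parp2, Parp3 and Parp1 hold neither motif. Of the family genes outside the members, 6 windows were searched, and each motif was in 1 of them. Parp16 holds the STAT letters at -4 to 4, and Zc3hav1, Tiparp, Parp6 and Tnks2 hold neither motif. Parp4 holds the response element letters at -150 to -141 and, overlapping them, at -144 to -135 on the plus strand (chr14:56575369-56575668, plus strand).
Parp4: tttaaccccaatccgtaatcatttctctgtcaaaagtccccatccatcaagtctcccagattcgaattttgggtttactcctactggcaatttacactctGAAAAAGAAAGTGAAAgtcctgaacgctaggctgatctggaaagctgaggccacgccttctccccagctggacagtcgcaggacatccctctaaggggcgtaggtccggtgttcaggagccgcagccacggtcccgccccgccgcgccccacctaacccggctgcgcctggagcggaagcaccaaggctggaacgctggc
Such a match says only which letters stand in a window, and none of these arrays measured binding of a factor.

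The normalized arrays were alike. Their gene medians lay between 5.04 and 5.12 on the log2 scale of RMA (a method that corrects background, normalizes quantiles and summarises probes), and the negative control rows had medians from 4.32 to 4.48. Normalizing quantiles draws array medians together, so they do not show how alike the arrays were before it. Across genes the arrays correlated at r = 0.992 to 0.996. The liver label was borne out by hepatocyte markers, among them Alb, the albumin gene, at 13.9 in control and 14.0 in treated livers. Of the 9 measured (10 listed), 3 had a higher and 6 a lower mean in treated livers. Their log2 differences, treated minus control, ran from -0.24 (Hnf4a) to 0.11 (Pck1). The number of arrays limits the precision. Nothing in the labels names a batch. Because whole livers were measured, fewer cells of a type and less RNA per cell cannot be told apart in any value below.

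Parp14 was the member with the largest difference between groups. It encodes a large macrodomain protein that adds single ADP-ribose units and acts in STAT6 signalling and antiviral defence. Its log2 signal was 7.08, 7.41, 6.94 and 7.74 in control replicates 1 to 4 and 8.06, 7.95, 8.29 and 7.95 in treated replicates 1 to 4. Every treated liver lay above every control liver, by at least 0.21 between the nearest pair, control replicate 4 and treated replicate 4. The means were 7.29 ± 0.36 and 8.06 ± 0.16 (SD, n = 4 each), so that the controls were the more scattered group. The log2 difference, treated minus control, was 0.77 ± 0.16 (SE from limma, a linear model with moderated variances), or 1.71-fold, which is above the difference of 99.8% of all genes.

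Parp11, whose product adds single ADP-ribose units and is known to promote the loss of the interferon receptor chain IFNAR1, was dim on the arrays. It stood at 4.91, 5.12, 5.06 and 5.04 in control replicates 1 to 4 and at 5.60, 5.39, 5.51 and 5.35 in treated replicates 1 to 4. The groups were separated by 0.23 at their nearest livers, and the spread within each was small. The difference was 0.43 ± 0.069 (1.35-fold). Its unadjusted p by limma ranked 24 among the 30649 genes, with an adjusted p of 0.195. That rank is a description, since the members were chosen with this comparison known.

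Parp12, a zinc finger member that is induced by interferon and restrains the replication of several RNA viruses, gave 7.77, 8.09, 7.81 and 8.11 in control replicates 1 to 4. The treated replicates gave 8.29, 8.15, 8.48 and 8.32. The groups did not overlap, but control replicate 4 and treated replicate 2 were only 0.042 apart. The difference was 0.36 ± 0.099 (1.29-fold).

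Parp9 and Dtx3l act as 1 complex, in which Dtx3l is the ubiquitin ligase and Parp9 brings macrodomains that bind ADP-ribose. Parp9 was at 7.50, 7.34, 7.22 and 7.44 in control replicates 1 to 4 and at 7.53, 7.49, 7.74 and 7.58 in treated replicates 1 to 4, a difference of 0.21 ± 0.078 (1.16-fold). Dtx3l was at 7.97, 7.79, 7.64 and 7.93 in the controls and at 7.95, 7.87, 8.10 and 8.02 in the treated livers, a difference of 0.15 ± 0.083 (1.11-fold). Both genes overlapped between the groups, and in both the control that reached into the treated range was replicate 1, with replicate 4 beside it for Dtx3l. The 95% interval of the Dtx3l difference ran from -0.035 to 0.34. Control replicate 3 was the lowest of all livers for both genes, and without it the differences were 0.16 for Parp9 and 0.087 for Dtx3l.

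Parp10, which adds single ADP-ribose units, had the smallest difference of the interferon-linked group. Its control replicates 1 to 4 were at 6.40, 6.59, 6.58 and 6.47, and its treated replicates at 6.69, 6.64, 6.64 and 6.64. The treated livers lay closer together than those of any other member measured, with an SD of 0.024 against 0.092 in the controls, and the groups were 0.046 apart at their nearest livers. The difference was 0.14 ± 0.053 (1.10-fold).

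Parp8, a family member whose function is little known, was dim as well. It was at 5.27, 5.33, 4.98 and 5.34 in control replicates 1 to 4 and at 5.38, 5.23, 5.66 and 5.53 in treated replicates 1 to 4. The groups overlapped through treated replicate 2, which lay below 3 of the 4 controls. The difference was 0.22 ± 0.11, with a 95% interval from -0.029 to 0.47, and it was 0.14 without control replicate 3, the lowest liver.

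The 2 measured members that act at DNA breaks had small differences between the groups. Parp2, which builds chains of ADP-ribose at breaks beside Parp1, was at 6.59, 6.46, 6.30 and 6.39 in control replicates 1 to 4 and at 6.58, 6.36, 6.57 and 6.52 in treated replicates 1 to 4. Its difference of 0.075 ± 0.075 had a 95% interval from -0.096 to 0.25. Leaving out control replicate 3 gave 0.029, leaving out control replicate 1 gave 0.13, and leaving out treated replicate 2 gave 0.12. Parp3, which adds single ADP-ribose units at breaks, was at 7.35, 7.465, 7.29 and 7.28 in the controls and at 7.31, 7.36, 7.28 and 7.23 in the treated livers. It was the only measured member with a lower mean in treated livers, at -0.049 ± 0.055 (95% interval -0.17 to 0.076), and stood at -0.0091 without control replicate 2 and at -0.027 without treated replicate 4. In both genes the ranges of the groups overlapped.

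**Figure D1:**
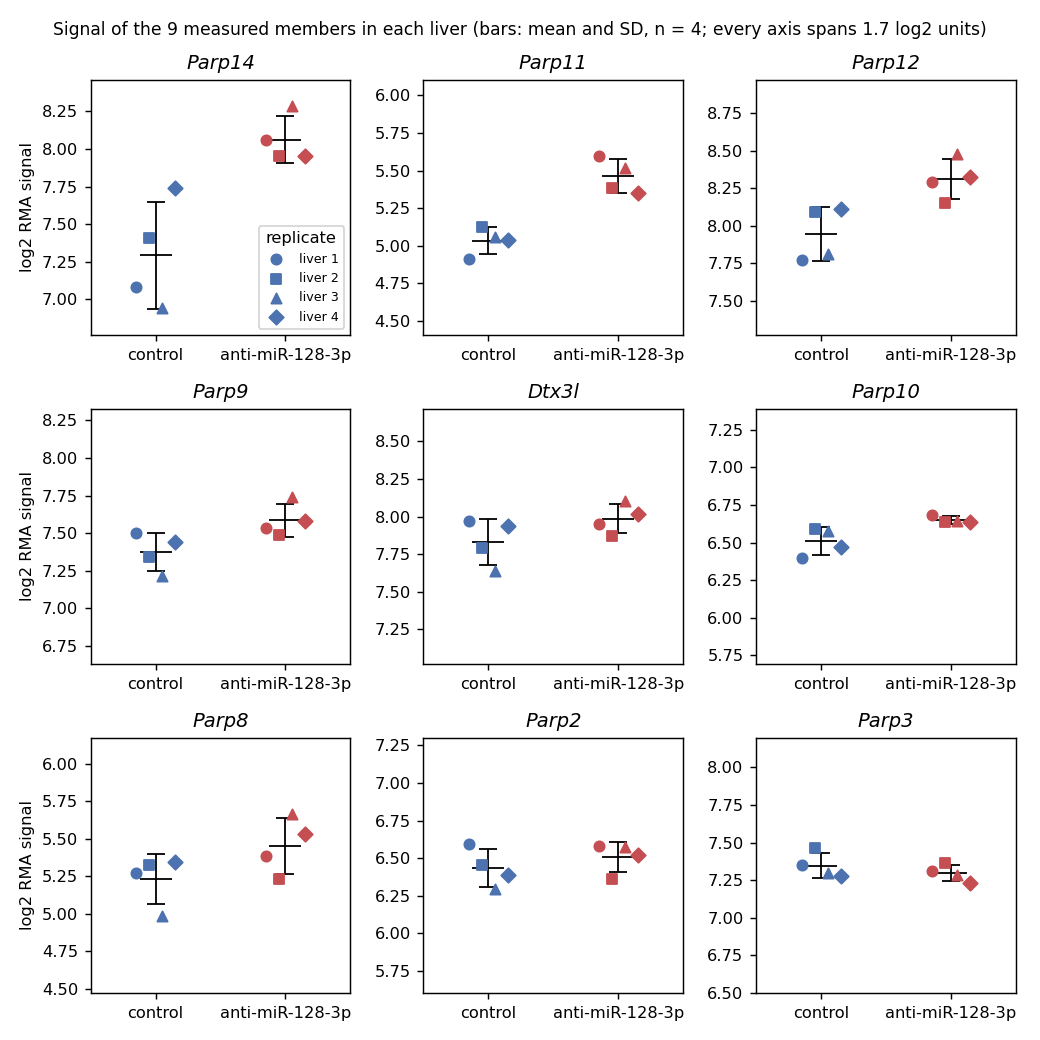
Log2 RMA signal (vertical axis) of each measured member in the 4 control (blue) and 4 anti-miR-128-3p (red) livers, with marker shapes for replicates 1 to 4 and bars for mean and SD. The treated livers of Parp14, Parp11, Parp12 and Parp10 all lie above the controls, with 0.21, 0.23, 0.042 and 0.046 between the nearest livers, and the other 5 members overlap.

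Of the 6 interferon-linked members (Parp9, Parp10, Parp11, Parp12, Parp14 and Dtx3l), all 6 had a higher mean in treated livers. Their median difference was 0.29 (log2), beside a median of -0.0017 over all genes. In 4 of the 6 the groups did not overlap, where 2.52% of all genes had every treated liver above every control. That count was 5 without control replicate 1 or without treated replicate 2, since Parp9 then joined, and 4 when any other single array was left out. With fewer arrays the share of all genes with such a separation was larger too, at 4.66% without control replicate 1, 4.71% without treated replicate 2 and 3.18% to 4.82% over all 8 omissions. Over all genes, limma with Benjamini-Hochberg adjustment called 0 genes at an adjusted p under 0.05 (0% of 30649), and so 0 of the 9 members, whose adjusted p-values ran from 0.195 to 0.900. At an unadjusted p under 0.05 limma counted 5 of the 6, all but Dtx3l, among 1306 genes higher in treated livers (4.26%) and 1032 lower (3.37%). Neither Parp2, Parp3 nor Parp8 was in that count. Since the comparison itself was in view when the members were picked, nothing is read from these shares.

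The livers that stood at the ends of the range were largely the same. Treated replicate 3 was the highest of the 8 livers in 4 of the 6 interferon-linked members (Parp9, Parp12, Parp14 and Dtx3l), and treated replicate 1 in the other 2, Parp10 and Parp11. Control replicate 1 was lowest for Parp10, Parp11 and Parp12, and control replicate 3 for Parp9, Parp14 and Dtx3l. Scores of 27 interferon reference genes that include no member (Ifit, Oas, Mx and others, 27 of 28 listed), taken as the mean of each gene's signal minus its mean over the 8 livers, ran from -0.68 to -0.11 in controls and from 0.225 to 0.77 in treated livers. They too were lowest in control replicates 3 and 1 and highest in treated replicate 3.

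Markers of other cells moved with some of these livers. Of 12 Kupffer cell and macrophage markers, 11 had a higher mean in treated livers, and their score ran from -0.90 to 0.097 in controls and from -0.33 to 0.73 in treated livers. It was lowest in control replicate 3, where Parp9, Parp14, Dtx3l, Parp8 and Parp2 were also lowest. The highest macrophage score, 0.73, was in treated replicate 1. Treated replicate 2 had a score of -0.33, yet its Parp14, Parp12, Parp11 and Parp10 signals lay above every control. Of the 12 lymphocyte and NK cell markers measured (13 listed), 8 were higher, and their score ran from -0.20 to 0.26 in controls and from -0.065 to 0.12 in treated livers. Of 10 neutrophil markers 9 were lower, and control replicate 1 had a neutrophil score of 1.41 against -0.39 to -0.13 in the other controls. The treated livers, at -0.36 to -0.028, overlapped those other controls. Mmp8 and Retnlg averaged at or below 4.11 in both groups, under the negative control medians, as did Ngp in treated livers (3.95). In treated livers S100a8 (4.42) and Elane (4.43) lay within the range of those medians. The lymphocyte genes Ms4a1, Ncr1 and Klrb1c lay at or below 3.93 in both groups, under the negative control medians. Of 9 stellate cell markers 6 were higher, and their score ran from -0.245 to -0.035 in controls and from -0.064 to 0.52 in treated livers, highest in treated replicate 3. Among them the collagen genes Col1a1 and Col3a1 differed by 1.62 ± 0.41 and 1.22 ± 0.35, more than any member, with every treated liver above every control. The rest of the stellate list differed less, from -0.29 ± 0.086 (Reln) to 0.12 ± 0.16 (Des), and the list median was 0.067. Of 9 sinusoidal endothelial markers 8 were lower, with scores from -0.21 to 0.35 in controls and from -0.315 to 0.12 in treated livers. Of 8 dendritic cell markers 6 were lower, with scores from -0.021 to 0.14 and from -0.14 to 0.023. Cd207, the langerin gene, differed by -1.22 ± 0.22, with every treated liver below every control. The rest of the dendritic list lay between -0.095 (Cd209a) and 0.14 (Clec9a), and the list median was -0.0068. Cd209a, Xcr1, Flt3 and Ccr9 averaged at or below 4.05 in both groups, under the negative control medians. The part of these cells in the member differences was not tested. Without control replicate 3, Parp14 differed by 0.65 and Parp12 by 0.32. Without control replicate 1 the same genes differed by 0.70 and 0.31.

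**Figure D2:**
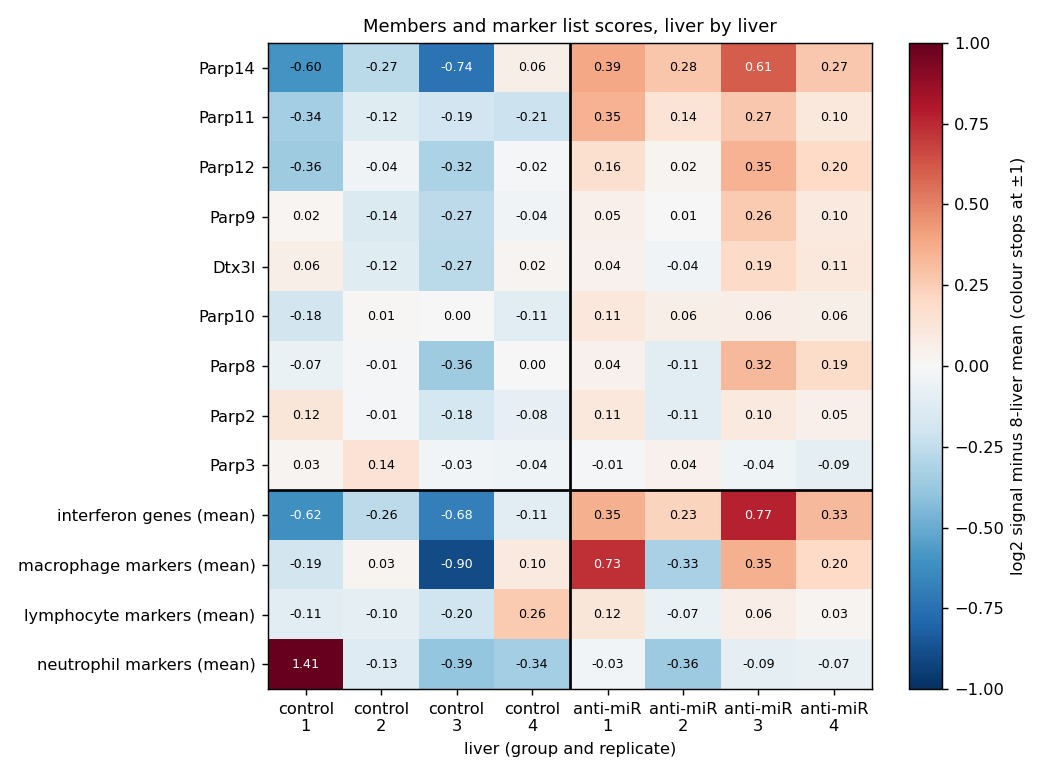
Log2 signal minus the 8-liver mean of each gene (colour and printed value) for the 9 measured members and, below the line, the mean of the same quantity over lists of interferon genes and of macrophage, lymphocyte and neutrophil markers, in the 4 control and 4 anti-miR-128-3p livers. Treated replicate 3 holds the highest interferon score, 0.77, and control replicate 3 the lowest macrophage score, -0.90.

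How the members varied together from liver to liver was taken from their deviations from their own group's mean, so that the difference between groups does not enter. These 8 deviations share arrays and group means, and each r over the 8 livers is a description. Parp9 and Dtx3l moved almost as 1 (r = 0.968, Spearman's rho = 0.952). Parp12 and Parp14 followed each other (r = 0.871, rho = 0.810), as did Parp10 and Parp11 (r = 0.726, rho = 0.786). Parp14 was looser with its neighbours on the chromosome, Parp9 (r = 0.516) and Dtx3l (r = 0.546). Parp8 went with Dtx3l (r = 0.853), Parp9 (r = 0.847) and Parp12 (r = 0.778). Parp2, a DNA-break member, also went with Dtx3l (r = 0.751, rho = 0.690) and Parp9 (r = 0.730, rho = 0.595). The largest r of Parp3 with any other member was 0.318, with Parp10. Set against the interferon reference score in the same way, Parp12 (r = 0.947) and Parp14 (r = 0.936) were closest, Parp8 had r = 0.805, Parp9 0.598, Dtx3l 0.564 and Parp11 0.421. Parp2 (r = 0.223), Parp10 (r = 0.0423) and Parp3 (r = -0.0195) showed little of it. Against the macrophage score Parp8 had r = 0.717, Parp2 0.704 and Parp14 0.669, and against the lymphocyte score Parp14 had r = 0.854.

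**Figure D3:**
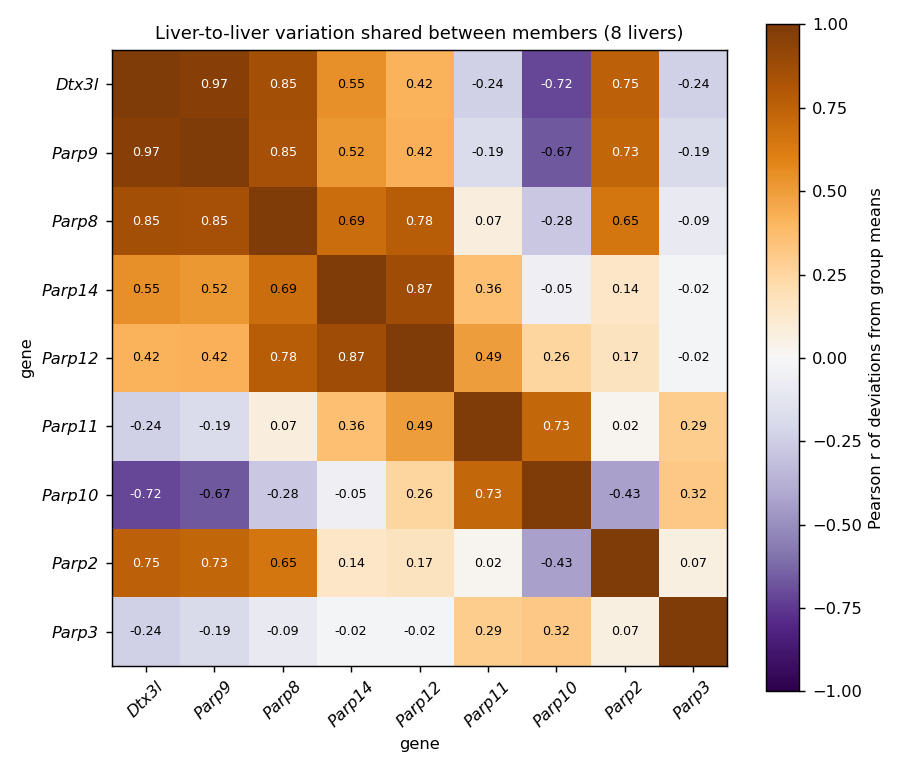
Pearson r between the deviations of each pair of measured members from their group means over the 8 livers (colour from -1 to 1, value printed). Dtx3l and Parp9 reach 0.97 and Parp12 and Parp14 0.87, whereas Parp10 is at -0.72 with Dtx3l.

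Of 11808 named genes at or above the median signal, those whose deviations were most like those of Parp14 over the 8 livers were Unc93b1, which carries Toll-like receptors to endosomes (r = 0.986), Sh3bgrl (r = 0.982) and Oas1a, an oligoadenylate synthetase gene (r = 0.982). Their differences between groups were unlike each other. Oas1a was higher in treated livers by 1.24 ± 0.26, whereas Unc93b1 differed by 0.10 ± 0.10 and Sh3bgrl by -0.020 ± 0.11.

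Parp14, Dtx3l and Parp9 lie next to each other among the protein-coding genes of mouse chromosome 16 in RefSeq. The nearest 4 protein-coding genes on each side gave differences from -0.24 ± 0.14 (Sema5b) to 0.14 ± 0.093 (Ccdc58), and in all 8 the groups overlapped. Hspbap1, beside Parp14, differed by 0.086 ± 0.062, and Kpna1, an importin gene beside Parp9, differed by -0.17 ± 0.070, lower where the 3 members were higher. Within the cluster the difference of Parp14, 0.77, stood beside 0.15 for Dtx3l and 0.21 for Parp9. A difference between these differences was not tested.

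**Figure D4:**
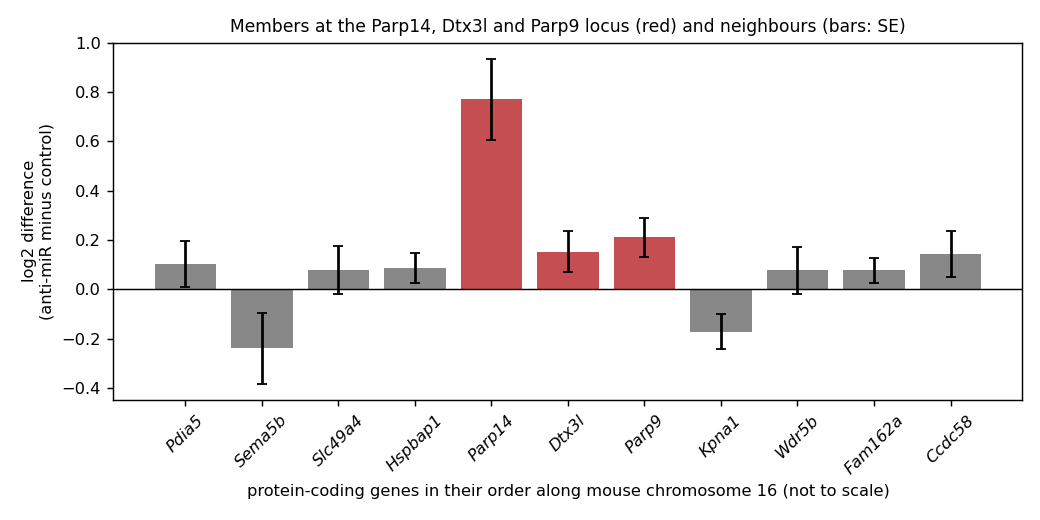
Log2 difference, anti-miR-128-3p minus control (vertical axis, bars start at 0, error bars are SE), of 11 protein-coding genes in their order along mouse chromosome 16, with the members Parp14, Dtx3l and Parp9 in red. Parp14 is at 0.77 and its neighbour Hspbap1 at 0.086.

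Other genes of ADP-ribosylation were read from lists beside the members. Of 7 further family genes, 4 had a higher and 3 a lower mean in treated livers, with a median difference of 0.0053, and 0 passed over all genes by limma. At an unadjusted p under 0.05 there were 2, both higher (4.26% of all genes). Zc3hav1, the zinc finger antiviral protein that binds viral RNA and was once named Parp13, was at 7.44, 7.52, 7.42 and 7.75 in control replicates 1 to 4 and at 7.78, 8.05, 7.72 and 7.72 in treated replicates 1 to 4. Only control replicate 4 reached into the treated range, and the difference was 0.29 ± 0.097 (limma adjusted p = 0.521). Parp4, the vault-associated member, was at 6.66, 6.91, 6.57 and 6.78 in controls and at 7.10, 6.96, 6.84 and 6.84 in treated livers. Control replicate 2 lay above 2 treated livers, and the difference was 0.20 ± 0.087 (limma adjusted p = 0.640). Tiparp, induced by the aryl hydrocarbon receptor, differed by -0.055 ± 0.078, and Parp6, Parp16, Tnks and Tnks2 by -0.025 to 0.027.

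Enzymes that remove ADP-ribose lay within a narrow range. Of the 6 measured (9 listed), 2 were higher and 4 lower, the median difference was -0.013, and limma counted 0 at either an adjusted or an unadjusted p under 0.05. Nudt16 differed by -0.050 ± 0.059, Macrod1 by -0.083 ± 0.14 and Oard1 by 0.036 ± 0.069. Of 8 measured partners of Parp1 and Parp2 in break repair (9 listed), 5 were higher and 3 lower, with a median of 0.0065 and 0 in either count. Rnf146, a ubiquitin ligase that recognises chains of ADP-ribose, differed by 0.090 ± 0.060, the chromatin remodeller gene Chd1l by 0.085 ± 0.059 and the ligase gene Lig3 by -0.086 ± 0.070.

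NAD is what these enzymes consume. Of 15 measured genes of NAD synthesis and use (16 listed), 6 were higher and 9 lower, with a median of -0.0061. Limma called 0 over all genes and counted 1 at an unadjusted p under 0.05, higher in treated livers (6.67%, beside 4.26% of all genes). That gene, Nampt, the rate-limiting enzyme of NAD salvage, was at 7.38, 7.51, 7.63 and 7.67 in control replicates 1 to 4 and at 7.62, 7.81, 7.99 and 7.73 in treated replicates 1 to 4. Its lowest treated liver lay below 2 controls, and the difference was 0.24 ± 0.091 (limma adjusted p = 0.580). Nnmt, which uses up nicotinamide, was scattered in both groups and differed by 0.47 ± 0.27, and Nmnat1 by -0.13 ± 0.11.

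Irf7 stands in both the reference list and the list of the interferon signal path. Genes of that path were measured for 12 of 13 listed, 10 higher and 2 lower, with a median difference of 0.087. None passed over all genes by limma, and at an unadjusted p under 0.05 there were 4 higher (4.26% of all genes) and 1 lower (3.37%). Irf9, a DNA-binding interferon regulatory factor, was at 6.92, 7.10, 6.85 and 7.12 in controls and at 7.40, 7.45, 7.53 and 7.39 in treated livers, a difference of 0.44 ± 0.071 (limma adjusted p = 0.195). Stat2, which acts with Irf9, differed by 0.30 ± 0.056 (adjusted p = 0.207 by limma) and Irf7, an amplifier of the type I response, by 1.53 ± 0.30 (adjusted p = 0.208 by limma). In all 3, named because they had the smallest p of the list, the treated livers lay above the controls (2.52% of all genes). In the rest of the list the groups overlapped. These lists, like the members, were written with results of these arrays known.

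**Figure D5:**
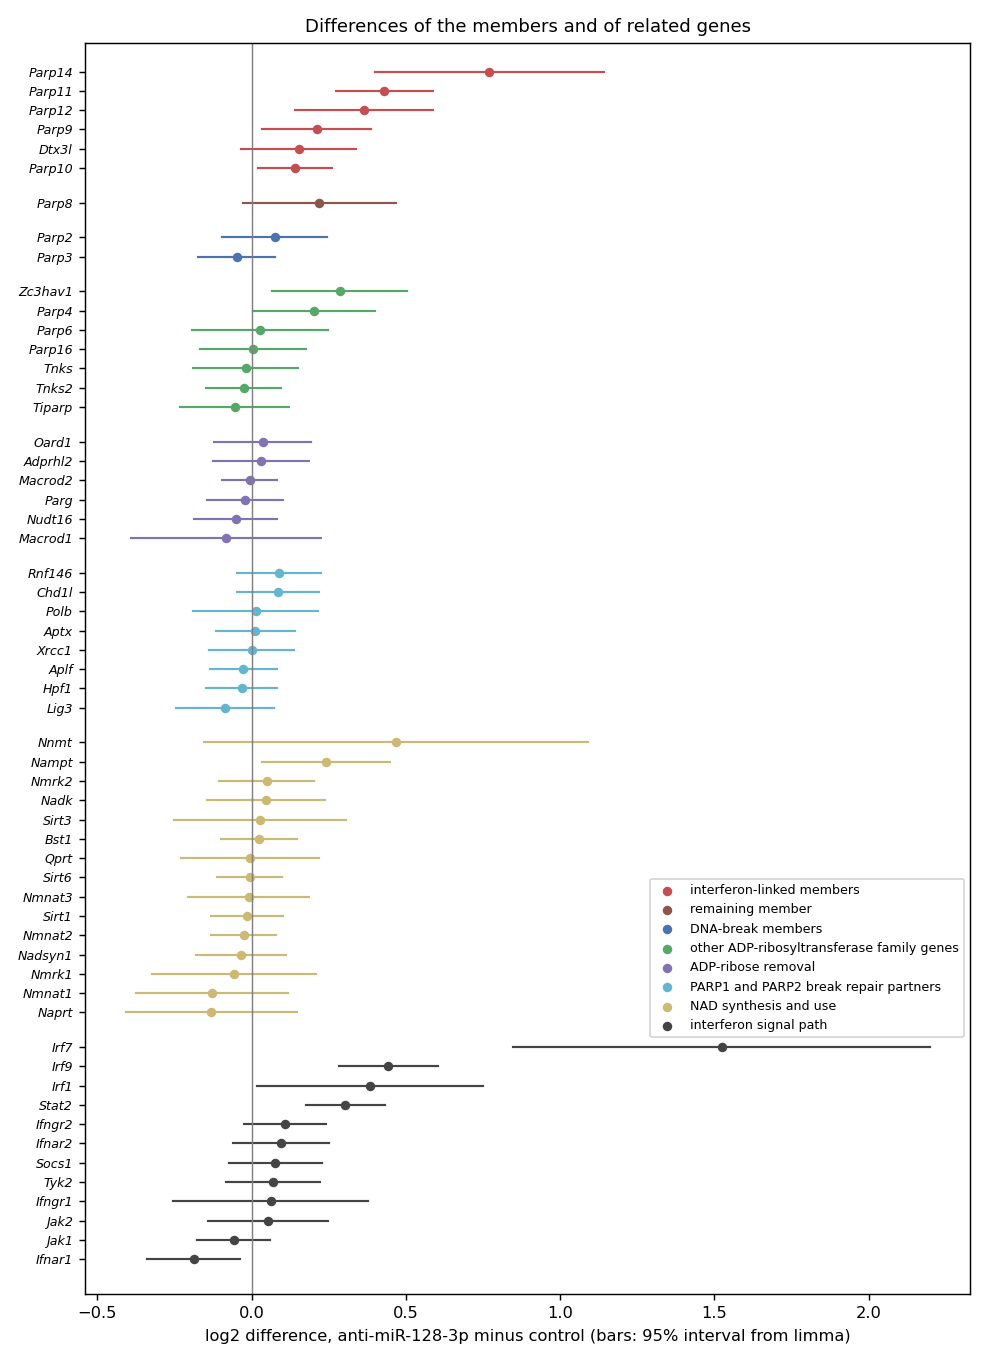
Log2 difference, anti-miR-128-3p minus control (horizontal axis), with 95% intervals from limma, for the 9 measured members and the genes of 5 related lists, coloured by list. Parp14 leads the members at 0.77, the enzymes that remove ADP-ribose lie between -0.083 and 0.036, and Irf7 is at 1.53.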

How the data were processed

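Gene expression was measured on 8 arrays, 4 per group, grouped by the titles. The deposited values are log2 signals that the authors made with RMA, per the submitters' processing notes. No version of RMA, annotation release or filter was named in those notes. Of 72688 rows, 6732 array control rows were left out. Probe sets were named from the platform annotation, with symbols updated by Entrez ID through a RefSeq table of GRCm38.p6, and 31112 that name exactly 1 gene gave 30649 genes, the brightest probe set being taken for the 365 genes with several. No filter on dim genes was used. A linear model without covariates was fitted to all genes with limma 3.58.1 under R 4.3.3 (lmFit, eBayes, two-sided tests), with Benjamini-Hochberg adjustment and a threshold of 0.05, and was tested on simulated data. Fold changes are 2 to the power of the log2 difference. That each array is a separate mouse is taken from the numbered titles, and p-values otherwise measure only the spread between arrays.

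The members and lists were chosen with earlier results of these data known. The genes named are all members, up to 3 genes per list with the smallest p, genes most like Parp14, and others (such as the chromosome 16 neighbours and marker genes) that were added after their values were seen. A likeness search for Parp1 and a comparison of protein sequences had been planned and were not run. Same-numbered arrays did not deviate together (r from -0.149 to -0.0415 over 15325 genes), so the numbers were not used as pairs. The alternatives were trend and robust moderation, weighted arrays, leaving out genes dimmer than the 25th percentile or than the median gene, averaging the probe sets of a gene, quantile normalization, median centring, the replicate number as a block, a looser threshold of 0.1, and each array left out in turn. Tables and plots were made with Python 3.11.15, pandas 2.3.3 and matplotlib 3.10.9.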

Additional observations from a re-analysis of the deposited data

Results flagged for a closer look

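Each of 27 named genes was checked in both groups of 4 livers (54 groups) for a liver far from the other 3, by the gap to its nearest neighbour over the whole range, against Dixon's 95% critical value, which about 1 group in 20 exceeds by chance. In 4 groups 1 liver stood apart. Parp10 was at 6.687 in treated replicate 1, against 6.643 in the next liver. Zc3hav1 was at 8.048 in treated replicate 2 (next 7.776). Sh3bgrl was at 8.479 in treated replicate 3 (next 8.235). Oard1 was at 7.472 in control replicate 3 (next 7.383).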

How the results depend on the processing

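The directions of all 9 measured members held under all 16 alternatives that gave them a value, and no member passed an adjusted p of 0.05 in any (smallest, Parp14 at 0.148 by limma). Moderation, the filters on dim genes, averaged probe sets and the replicate block cannot alter a member's difference. Only weighted arrays, the scaling settings and the omission of arrays could have turned a direction. The interferon-linked median of 0.29 ranged from 0.28 to 0.31 over other settings and from 0.23 without treated replicate 3 to 0.33 without treated replicate 2. The count of interferon-linked members whose groups do not overlap was 4 to 5 when single arrays were left out, while the share of all genes so separated went from 2.52% to between 3.18% and 4.82%, a check added after the data were seen. The DNA-break median, 0.013 over Parp2 and Parp3, ranged from 0.0020 to 0.023, and from -0.019 without control replicate 3 to 0.040 without control replicate 1. Genes called over the whole table numbered 0 to 1 when single arrays were left out, the 1 being Irgm1 without control replicate 4 (limma adjusted p = 0.0376), and 0 at an adjusted p under 0.1. Of the 48 pathway genes measured outside the members, 0 were called in any setting, and the filter at the median gene kept 42 of them. With the replicate number as a block, limma called 0 genes. The interferon-linked median stayed at 0.29, as it must, since each number has 1 array in each group. The limma adjusted p was then higher for each interferon-linked member, at 0.464 for Parp11 and 0.502 for Parp14. It was slightly lower for Parp2 and Parp3. Scaling moved the median of all genes by little (-0.0062 after quantile normalization, -0.013 after centring). Parp11 and Parp8 lay nearest to the negative control signal, which limits what their values can show.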

Other observations

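In deviations from group means pooled over the 8 livers, Parp10 moved against the Parp9 and Dtx3l pair (r = -0.671 and -0.716). All 3 nevertheless had higher means in treated livers. Parp10 varied little among treated livers (SD 0.024, against 0.092 in controls), so these r values rest mostly on the controls. In control replicate 1, the liver with the highest neutrophil score, Parp10 was the lowest of the 8 livers while Dtx3l ranked 3 and Parp9 ranked 4. These values were picked out after they were seen.

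Ifnar1, the receptor chain whose loss Parp11 is known to promote at the protein level, averaged 8.40 ± 0.10 among controls and 8.22 ± 0.090 among treated livers (SD, n = 4 each), a log2 difference of -0.19 ± 0.066 with an adjusted p of 0.549 by limma. It was the only gene of the interferon signal path list lower at an unadjusted p under 0.05, and Ifnar2, the other chain, differed by 0.096 ± 0.068. In both genes the groups overlapped. Both are RNA levels, no protein was measured, and a link with Parp11 was not tested.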
